A study of Arabidopsis thaliana with 9 samples.

Results

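The GRAS family is a group of plant transcriptional regulators named after GAI, RGA and SCR. Its 34 protein-coding members were taken from the TAIR10 annotation, out of 27432 protein-coding genes on the 5 nuclear chromosomes. A gene table of the TAIR10.1 assembly names 21 of them by symbol or synonym, and the other 13 are given here by locus code alone. The rule for membership is the encoded GRAS domain, as annotated, and uses no measured value of these data. The members were still chosen with earlier results of these data known, and no protein search was run here. A gene was counted as bound when a deposited FIE peak overlapped its body, the annotated span of the gene, by at least 1 bp.

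FIE belongs to PRC2, the Polycomb complex that deposits the H3K27me3 histone mark on histone H3 and keeps developmental genes silent outside their own cell types. Anti-FIE chromatin immunoprecipitation was sequenced from wild-type plants without a transgene and from plants carrying the transgenes pRNAi-BPC and pRNAi-ZnF, hereafter the knockdown, with input chromatin of the wild type as the third group. All 3 groups were of the Ws strain, aged 30 hr, with 3 biological replicates each, and 9 libraries in all. The promoters of the transgenes, the genes they target and the number of lines are not given in the labels, and peaks of this Ws material are placed on the TAIR10 genome of another strain, Columbia. The data are 1 peak list per anti-FIE group, with 6540 wild-type and 4882 knockdown peaks. The spread between replicates could therefore not be measured, and no test between the groups was made. Whole plants were used, and FIE present in fewer cells cannot be told apart from less FIE per cell.

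DELLA proteins, the GRAS members RGA, GAI, RGL1, RGL2 and RGL3, restrain growth and germination until the hormone gibberellin triggers their breakdown. SHR moves from the central cylinder of the root into the surrounding layer, where with SCR it directs the asymmetric division that forms endodermis and cortex. LAS is needed for axillary meristems, and the HAM genes, several of which are cut by miR171, maintain the shoot meristem. PAT1 and several related members act in phytochrome signalling.

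Of the 34 GRAS genes, 10 carried a FIE peak in the wild type (29.4%) and 0 did in the knockdown. The background over all protein-coding genes was 9.93% for wild-type peaks and 4.40% for knockdown peaks. GRAS genes are 1452 to 3217 bp long, and among the 13619 protein-coding genes in this range of length the shares were 9.81% and 3.92%. The 10 bound members were GAI, RGL2, RGL3, SHR, SCR, HAM1, HAM3, LAS, AT3G49950 and AT5G67411. A further 4 members, SCL3, SCL13, AT5G66770 and AT3G50650, had a wild-type peak within 2000 bp of the body but not on it. This brought the count to 14 (41.2%), against 21.3% of all protein-coding genes. The other 20 members had no wild-type peak within 2000 bp, and their nearest one lay 3.82 to 39.7 kb away. The share of bound GRAS genes was above the background in the wild type.

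**Figure D1:**
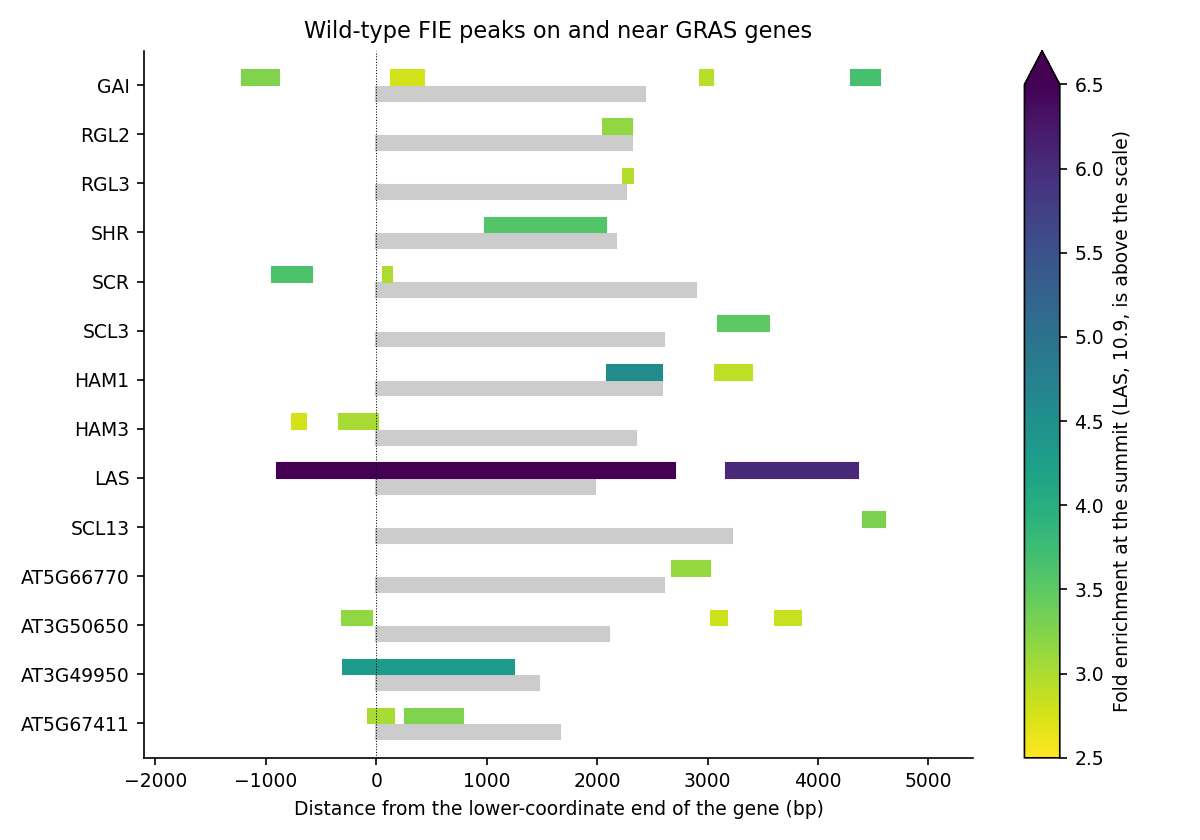
Wild-type FIE peaks (coloured boxes) on and within 2000 bp of the 14 GRAS genes that had any, drawn above each gene body (grey), with distance in bp from the lower-coordinate end of the gene on the x axis and colour giving the fold enrichment at the summit. LAS lies wholly inside a peak of 3596 bp, whereas the peaks at RGL3 and HAM3 reach 22 and 14 bp into the gene.

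Wild-type peaks lay on 3 of the 5 DELLA genes. GAI (chromosome 1, 5148982 to 5151415) had a peak of 292 bp near its lower-coordinate end, with a fold enrichment of 2.77 at the summit. Fold enrichment is the ratio of the pileup of reads to the local background, as the authors' peak caller gave it. The −log10 q given with it is the significance of that excess, adjusted for the number of tests. This peak had a −log10 q of 10.2, close to the level of 10 that all deposited peaks exceed. RGL2 (chromosome 3, 819337 to 821652), the member best known for blocking seed germination, had a peak of 261 bp at the opposite end, with a fold of 3.17 and a −log10 q of 14.4. RGL3 (chromosome 5, 5763989 to 5766246), which also takes part in jasmonate responses, had a peak of 86 bp whose summit lay 31 bp outside the gene, with a fold of 2.96. RGA and RGL1 had no peak within 5000 bp in either list. The nearest wild-type peak was 5194 bp from RGA and 19133 bp from RGL1. RGA and GAI, the pair with the widest role in growth, thus differed in whether a peak was listed.

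The root patterning genes SHR and SCR were both bound in the wild type, but in different ways. At SHR (chromosome 4, 17691687 to 17693859) a peak of 1095 bp lay inside the gene and covered 50.4% of it, with a fold of 3.58 and a −log10 q of 15.5. At SCR (chromosome 3, 20069987 to 20072878) the peak on the body was 88 bp long and covered 3.04% of the gene, with a fold of 2.99. A stronger peak of 358 bp, with a fold of 3.63 and a −log10 q of 19.4, lay 584 bp beyond the lower-coordinate end of SCR. SCL23 (chromosome 5, 16779643 to 16781424), which acts with SCR in the layer around the vascular bundles, had no peak within 2000 bp, and its nearest wild-type peak was 3820 bp away. SCL3 (chromosome 1, 18677694 to 18680300), which counteracts DELLA proteins in the root endodermis, had no peak on the body. A peak of 463 bp with a fold of 3.49 and a −log10 q of 20.2 lay 490 bp beyond its higher-coordinate end. The broad coverage of SHR was the exception among these 4 genes.

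Of the 4 HAM genes, 2 were bound in the wild type. HAM1 (chromosome 2, 18617862 to 18620451) had a peak of 499 bp inside its higher-coordinate end, with a fold of 4.57 and a −log10 q of 33.6, second to LAS among the bound members. A weaker peak with a fold of 2.90 lay 480 bp beyond that end. HAM3 (chromosome 4, 57140 to 59495) had a peak of 353 bp with a fold of 3.03, of which 14 bp lay on the gene, and another of 130 bp with a fold of 2.78 lay 636 bp away on the same side. HAM2 and HAM4 had no peak in either list within 2000 bp, and their nearest wild-type peaks were 4621 and 7989 bp away. HAM1 was the 1 gene of this group with a peak clearly within its body.

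LAS stood out by the strength and breadth of its peak. Its body (chromosome 1, 20763844 to 20765823) lay wholly within a wild-type peak of 3596 bp (20762949 to 20766544), with a fold of 10.9 and a −log10 q of 133. By length this peak ranked 24 of all 6540 wild-type peaks, and by fold it ranked 93. Among the 2725 protein-coding genes with a wild-type peak, the fold at LAS ranked 50, within the top 1.83%. A second peak of 1195 bp, with a fold of 6.05 and a −log10 q of 51.1, began 1192 bp beyond the higher-coordinate end. LAS alone held 32% of the 6192 bp of GRAS gene body under wild-type peaks.

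PAT1, SCL1, SCL5, SCL8, SCL13, SCL14 and SCL21 had no peak on the body in either list. This group holds only members with a symbol or synonym, so members given by locus code were not sorted into it. PAT1 and SCL21 act in phytochrome A signalling, SCL13 in red light responses, and SCL14 in the induction of detoxification genes. SCL13 had a wild-type peak of 192 bp with a fold of 3.29, at 1195 bp from its higher-coordinate end. For the other 6 the nearest wild-type peak was 7908 bp away at PAT1, 8511 bp at SCL5 and 39703 bp at SCL8, with SCL1, SCL21 and SCL14 between them.

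Of the 13 members known by locus code, 2 were bound. AT3G49950 (chromosome 3, 18522466 to 18523934) had a peak of 1547 bp that covered 85.1% of the body, with a fold of 4.32 and a −log10 q of 25.5, and its summit lay 18 bp inside the lower-coordinate end. AT5G67411 (chromosome 5, 26898077 to 26899736) had 2 peaks, of 233 and 532 bp, with folds of 3.02 and 3.27. They covered 691 bp of the gene together, and the first also overlapped its neighbour AT5G67410 by 14 bp. This was the 1 peak on a member that touched another annotated gene. The adjacent genes AT1G07520 and SCL14, 1195 bp apart, and AT2G29060 and AT2G29065, 237 bp apart, had no wild-type peak within 5000 bp.

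Some members lay close to the 1 bp limit that defines a bound gene. HAM3 and RGL3 were inside it by 14 and 22 bp, with summits outside the gene. AT3G50650 (chromosome 3, 18806139 to 18808243) had a peak of 271 bp with a fold of 3.17 that ended 43 bp short of the gene, and AT5G66770 (chromosome 5, 26660311 to 26662919) had one of 342 bp with a fold of 3.14 that began 73 bp beyond it. These 4 peaks had folds of 2.96 to 3.17, so bound and unbound members there were separated by position and not by strength.

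Apart from LAS, HAM1 and AT3G49950, bound GRAS genes carried peaks of middle or low strength for the wild-type list. The highest fold per gene ranged from 2.77 to 10.9 over the 10 bound members, with a median of 3.22. Over all 2725 bound protein-coding genes the median was 3.36 and the quartiles were 3.08 and 4.13. LAS, HAM1 and AT3G49950 lay above the upper quartile, and SHR was the fourth member above the median. The remaining members ranked from 1566 (AT5G67411) to 2692 (GAI). Wild-type peaks covered a median of 396 bp, or 15.6%, of the body of the bound members, and of 310 bp, or 16.3%, over all bound protein-coding genes.

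**Figure D2:**
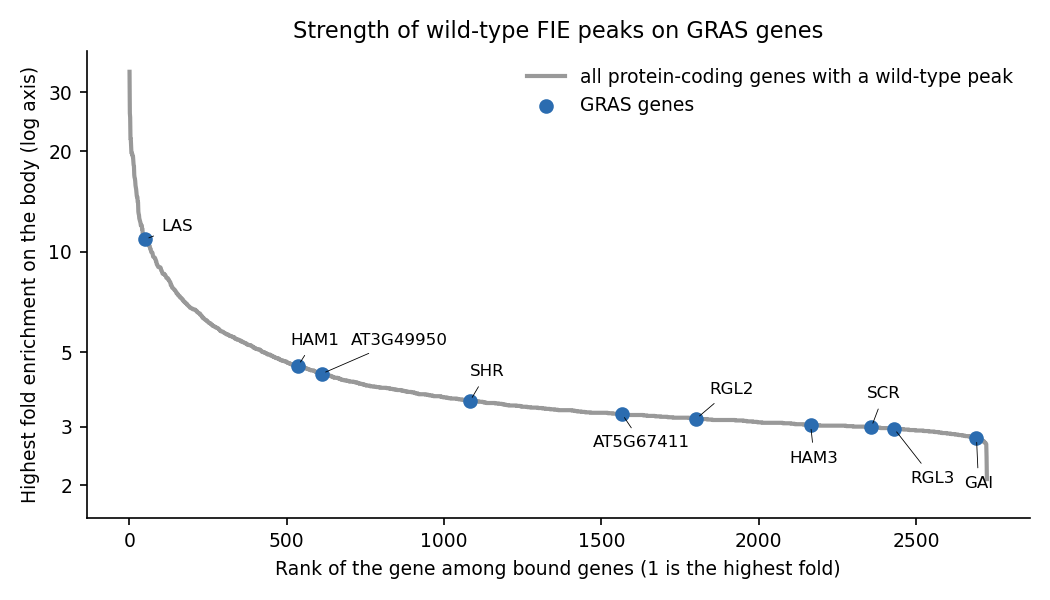
Highest wild-type fold enrichment on the gene body (y, log axis) against rank for the 2725 bound protein-coding genes (grey line) and the 10 bound GRAS genes (points). LAS ranks 50, HAM1 537 and AT3G49950 612, while GAI ranks 2692.

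Most peaks on GRAS genes had their summit near a gene end. Of the 11 wild-type peaks that overlapped a member, 8 had a summit within 300 bp of 1 of its ends, inside or outside the body. In the same range of gene length, 712 of 1680 pairs of a bound gene and its peak did (42.4%). The window of 300 bp was chosen after the values were seen. The exceptions were the long peaks of SHR and LAS, with summits 58.3% and 45.9% of the way along the gene, and the peak of 532 bp at AT5G67411. The gene table gives no strand, so a start could not be told from an end.

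No GRAS gene had a knockdown peak on its body or within 2000 bp, against 10% of all protein-coding genes. Of the 11 wild-type peaks on members, 0 were overlapped by a knockdown peak. All 10 members bound in the wild type lacked a knockdown peak on the body, as did 92.4% of all protein-coding genes bound there. The nearest knockdown peak was a median of 25 kb away from members, and 21 kb from all protein-coding genes. Within 5000 bp, 4 members had a knockdown peak, at 2708 bp from SCL21, 3402 bp from SCL14, 3702 bp from HAM3 and 4095 bp from AT3G46600, against 18.4% of all protein-coding genes. None of these 4 peaks, with folds of 4.02 to 4.53, overlapped a wild-type peak.

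**Figure D3:**
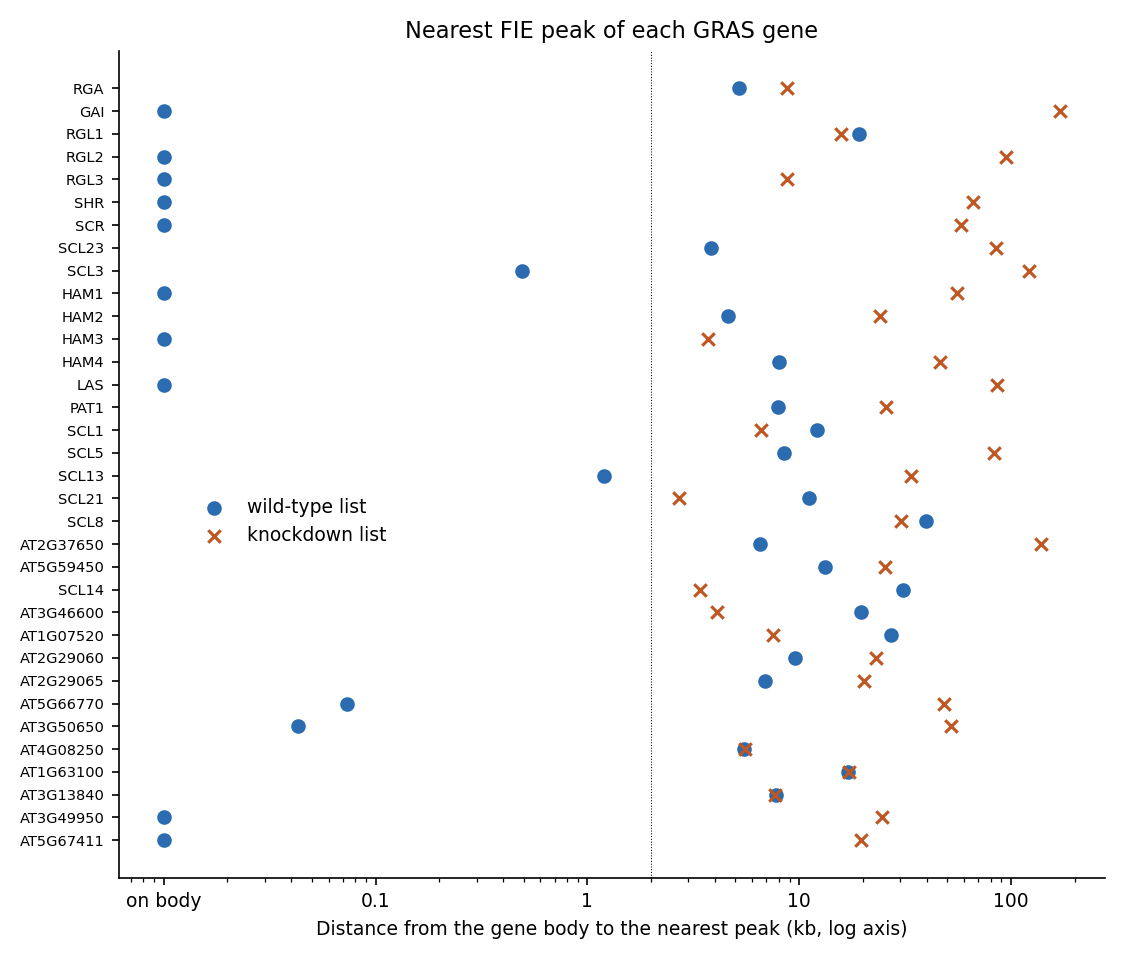
Distance in kb (log axis) from the body of each of the 34 GRAS genes to the nearest peak of the wild-type list (circles) and the knockdown list (crosses), with genes that carry a peak placed at "on body" and the dotted line at 2 kb. The 10 circles on bodies have no cross to the left of the line.

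For most members the knockdown list was not deep enough to show a loss. The local background behind each peak, solved from its fold and −log10 p, was 0.471 times as high in the knockdown. This ratio was taken as the relative depth, on the untested assumption that immunoprecipitation worked equally well in both groups. At that depth 3 of the 11 wild-type peaks on members would still have been listed if FIE were unchanged, those at LAS, HAM1 and AT3G49950. Of the 2725 protein-coding genes bound in the wild type, 742 had such a peak, which is 2.70% of all protein-coding genes. In the whole wild-type list, 1624 of 6540 peaks would have been listed, so the share on members was near the general one. At LAS the wild-type pileup of 202 corresponded to 95.2 at the knockdown depth, where 36 was needed, so a knockdown summit at 37.8% of the scaled pileup would have been listed. At HAM1 the scaled pileup was 48.6 against 41 needed, and at AT3G49950 it was 39.1 against 37. The binomial probability of passing, with FIE unchanged, was 94.5% at HAM1 and 71.7% at AT3G49950. Of these 3, LAS was the gene with a wide margin. None of the 3 had a knockdown peak on the body, and neither did 668 of the 742 protein-coding genes with such a wild-type peak (90.0%).

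At the other 7 bound members the scaled pileup was below the level needed, and a loss of FIE was not detectable. For SHR it was 29.7 against 35, with a probability of passing of 11.3%. For GAI it was 29.2 against 41, with 0.199%. For SCR it was 31.6 against 41 on the body. The missing knockdown peaks at GAI, RGL2, RGL3, SHR, SCR, HAM3 and AT5G67411 are therefore not measurements of lower occupancy. Over all 11 peaks, 2.97 were expected to pass. Of the 13 wild-type peaks in the flanks, only the second peak at LAS had a scaled pileup at the level needed. It too had no knockdown counterpart. Flank peaks at SCL3, GAI and SCR had probabilities of passing of 26.1% to 33.5%. Over all peaks on or within 2000 bp of members, 5.38 were expected to pass.

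**Figure D4:**
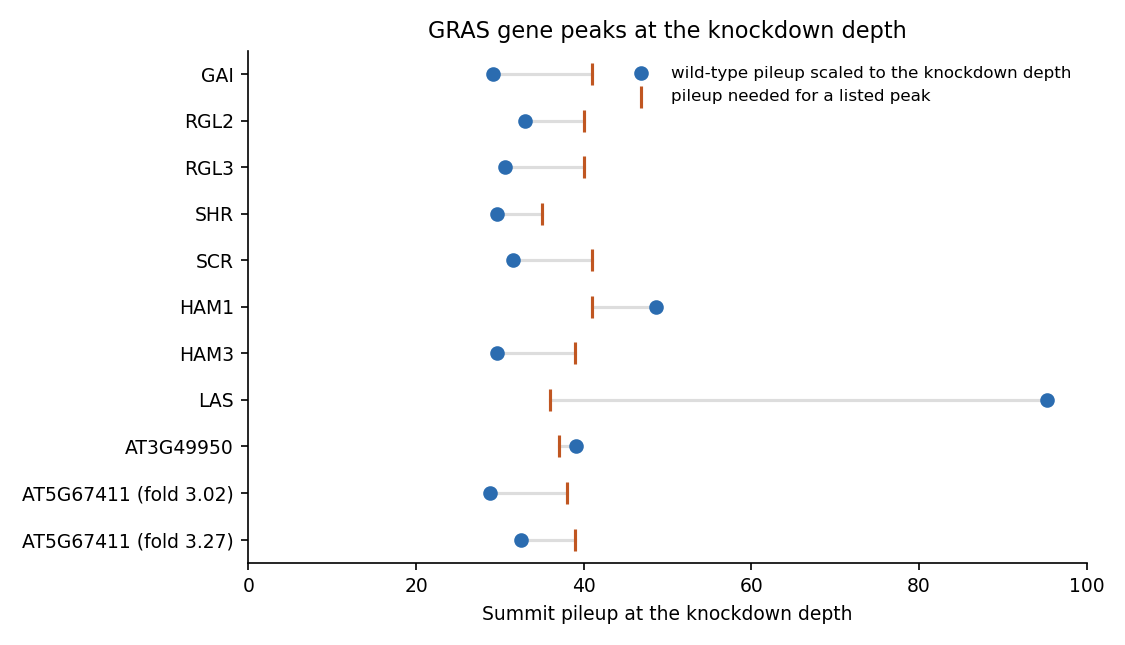
For each of the 11 wild-type FIE peaks on GRAS genes, the summit pileup scaled to the knockdown depth (circles) and the pileup needed for a peak to be listed there (bars). The circle lies to the right of the bar at LAS (95.2 against 36), HAM1 (48.6 against 41) and AT3G49950 (39.1 against 37), and to its left for the other 8 peaks.

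Genes that act with GRAS proteins or in the same processes were described from 7 lists of 65 genes. Of these, 33 had a wild-type peak on the body and 3 had a knockdown peak. The lists were chosen with earlier results of these data known, so their counts are description only. The counts below stand beside the same background shares of 9.93% (wild type) and 4.40% (knockdown). These shares are for protein-coding genes and do not serve for the 4 genes of the MIR171 list, which are short microRNA genes. IDD genes encode zinc finger proteins that bind DNA together with SHR, SCR and DELLA proteins. Of 16 IDD genes, 13 were bound in the wild type, with a median highest fold of 6.12 and a median of 65.4% of the body covered. The highest folds were at IDD4 (10.8, with 2566 bp of the body covered), IDD12 (8.96) and JKD (8.61, with 91.3% of the body covered), a factor that confines SHR in the root. Of the 16, 10 had a peak that would have passed at the knockdown depth. Of these, 9 had no knockdown peak on the body, and neither had 90.0% of all protein-coding genes with such a wild-type peak. Within 2000 bp, 3 of the 16 had a knockdown peak. IDD5 had 123 bp of its body under a knockdown peak, against 3152 bp under wild-type peaks, and AT5G60470 had 89 bp, against 325 bp.

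Wild-type peaks lay on 4 of 19 genes of gibberellin synthesis and breakdown, and knockdown peaks on 0. The highest folds were at the catabolic genes GA2OX7 (4.20) and GA2OX6 (4.01) and at GA1 (3.42), which encodes the enzyme of the entry step, and GA2OX6 was the 1 gene whose peak would still have been listed at the knockdown depth. Of 6 genes for receptors and partners of the DELLA proteins, 2 were bound. The receptor gene GID1B had a fold of 7.48 and 53.3% of its body covered, and SNE, an F-box gene, had a fold of 3.04. GID1A and GID1C, the other receptor genes, had no peak on the body or within 2000 bp. GID1B would have passed at the knockdown depth and had no knockdown peak. Neither had GA2OX6, nor, on the body, 90.0% of all protein-coding genes with such a wild-type peak.

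Some genes of root patterning, of axillary meristems and bud growth, and of the PIF group were also bound. Wild-type peaks lay on 3 of 6 radial pattern and root niche genes, and knockdown peaks on 0. The bound genes were the root stem cell gene PLT2 (10.8), PLT1 (3.81) and the cyclin gene CYCD6;1 (2.79), a direct target of SHR and SCR. Of 7 genes of axillary meristems and bud growth, 6 were bound, led by AT5G01305 (6.14), RAX1 (6.02), a MYB gene that acts beside LAS, and the bud repressor BRC1 (5.61). RAX3 was the reverse case, with 78 bp under a knockdown peak alone. Among 7 PIF genes, several of whose products are held inactive by DELLA proteins, 5 were bound and 0 had a knockdown peak. The highest folds were at PIF5 (5.44), PIF7 (4.01) and UNE10 (3.58). A peak that would have passed at the knockdown depth lay on 1 radial pattern, 3 axillary meristem and 2 PIF genes. None of these genes had a knockdown peak on the body, and neither had 90.0% of all protein-coding genes with such a wild-type peak. At the other bound genes of these lists, a missing knockdown peak is not a measurement of lower occupancy. The 4 genes for miR171 and the related MIR170 had no peak on the body in either list, and MIR171A had 1 peak of each list within 2000 bp.

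**Figure D5:**
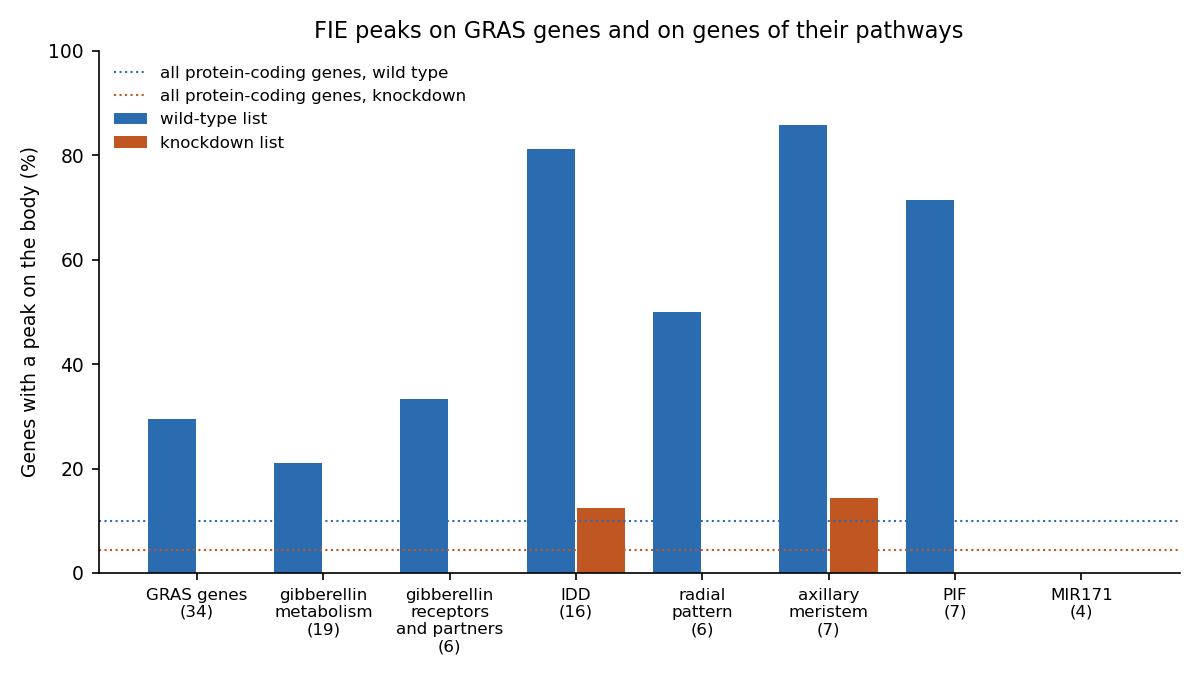
Share of genes (%) with a FIE peak on the body in the wild-type (blue) and knockdown (orange) lists, for the 34 GRAS genes and the lists of pathway genes, with the number of genes in brackets and dotted lines at 9.93% and 4.40%, the shares of all protein-coding genes. The wild-type share is 29.4% for GRAS genes and 81.2% for IDD genes. The lists were chosen with earlier results of these data known. No bar stands for MIR171 genes, which are not protein-coding and none of which had a peak on the body.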

How the data were processed

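Per the submitters' processing notes, the tools were Bowtie2, bedtools and MACS2 2.1.0.20151222 with the TAIR10 build, and their roles are not given in the sources used here, nor is how replicates and input entered each list. For each anti-FIE group there was 1 list. Its deposited columns are the peak interval, a score, the fold enrichment (a ratio), the −log10 of the p-value, that of the q-value and the place of the summit. The score deposited by the authors was the whole part of 10 times the −log10 q in 100% of peaks. All deposited −log10 q values were above 10, so weaker sites are missing from the lists. The name of one list is not explained by the labels, and it was taken as the knockdown because no other anti-FIE group remained.

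Gene positions came from a RefSeq table of TAIR10.1, without strand or sequence, so no upstream side was defined and no motif was searched. Printed peak coordinates are the TAIR10 ones of the lists, counted from 1. Gene coordinates are those of the table, on the assumption that the nuclear sequences of both assembly names are equal. All 34 members matched by locus code. Membership of the 13 loci to which the table gives neither a symbol nor a synonym of this family rests on the family annotation.

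Depth per library is not in the files. Pileup and background were solved from each fold (pseudocount 1) and −log10 p under a Poisson model (largest misfit 7.27e-04), and tested on simulated data. The median ratio of backgrounds, knockdown to wild type, was 0.471 over 874 summits that the lists share to within 30 bp. A wild-type peak passed at the knockdown depth when its scaled pileup reached a −log10 p of 12.4, which is the smallest value among knockdown peaks.

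Every member is named. Of each other list the rule names the 3 highest wild-type folds and every gene with a knockdown peak, and GID1A, GID1C and MIR171A were added after their values were seen. The members and lists were chosen with earlier results of these data known. Python 3.11.15, pandas 2.3.3 and scipy 1.17.1 were used.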

Additional observations from a re-analysis of the deposited data

How the results depend on the processing

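The count of 10 GRAS genes bound in the wild type fell to 3 with a −log10 q of at least 20 (8.82% of members, against 3.23% of all protein-coding genes), to 5 with peaks at or above the median −log10 q of the list (14.7% against 5.23%), and to 3 with peaks that would pass at the knockdown depth (8.82% against 2.70%). HAM1, LAS and AT3G49950 remained in each of these. It was 8 with the summit inside the body (23.5% against 8.85%) and 7 with at least 100 bp of the body covered (20.6% against 8.51%). With flanks of 1000, 2000 and 5000 bp on either side, added after the data were seen, it was 13, 14 and 16. The share of all protein-coding genes with flanks of 2000 bp was 21.3%. No wild-type background was taken for 1000 and 5000 bp, so the counts of 13 and 16 cannot be set against all genes. The count in the knockdown was 0 under each alternative except flanks of 5000 bp, where it was 4, with 1 gene (HAM3) in both lists. No wild-type peak on a member had a knockdown peak within 500 bp. The upstream flank and the protein search could not be run, since the gene table gives neither strand nor protein sequence. No paired analysis was possible because each group is 1 list over its replicates, and for the same reason no replicate could be left out.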

Other observations

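GAI lay among many wild-type peaks. On its body and within 5000 bp there were 9 peaks, of 110 to 450 bp, with folds of 2.77 to 3.87, which together covered 2322 bp. Of all 27432 protein-coding genes, 15 had 9 or more wild-type peaks in this window (0.0547%). The nearest knockdown peak was 170 kb away, the longest such distance of any GRAS gene. At the knockdown depth, no GAI peak on the body or within 2000 bp had a scaled pileup at the level needed. Their probabilities of passing were 0.199% to 30.9%, so their absence there is not a measurement of lower occupancy. LAS, by comparison, had 5 peaks in the window, which covered 5536 bp with folds of 3.19 to 10.9. These values were singled out after they were seen, and the cause was not tested.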
